A study of Mus musculus with 6 samples.

Results

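Chemokine ligands were measured in dendritic epidermal T cells (DETC), the γδ T cells that live in the epidermis of the mouse, sorted from mice that differ in the aryl hydrocarbon receptor (AHR). The 35 ligands are all genes of the annotated gene table whose symbol starts with Ccl, Cxcl, Xcl or Cx3cl and a digit, out of 20300 genes measured on Clariom S Mouse arrays. All mice came from matings of heterozygous B6.129-Ahrtm1Bra/J animals, in which the gene for AHR is knocked out, and were 2 weeks old, female and male. The 3 Ahr-het arrays hold cells of mice with 1 knockout allele, which served as littermate controls, and the 3 Ahr-ko arrays hold cells of mice with both alleles knocked out. Every mouse therefore carried at least 1 knockout allele in all its cells, and no cells labelled wild type were analysed here. The study's text refers to this series as DETC of wild type mice, whereas the sample labels name only the knockout genotypes, and the labels were followed. Each array holds RNA pooled from 2 to 3 mice, so the p-values below measure the spread between pools, and neither the sex of a pool nor its litter is given. Epidermal cells of back and belly were sorted on the γδ TCR and the Vγ3 chain, with 90 to 98% pure cells after the sort. The series text puts the share of DETC among live cells of the epidermis at 10 to 15% for Ahr-het, against 2 to 4% for Ahr-ko.

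Chemokines are small secreted proteins that guide leukocytes along gradients. They fall into the CC, CXC, C and CX3C families by the spacing of their first cysteines, and they act on G protein-coupled receptors on the target cell. Inflammatory ligands are made by activated cells and recruit others, whereas homeostatic ligands such as CXCL12 position cells in resting tissue. DETC are known as a local source of chemokines when they sense stressed or wounded keratinocytes. AHR is a transcription factor that is activated by tryptophan metabolites and pollutants.

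The deposited values are log2 expression after RMA and hold no call of presence. A background limit was therefore set on each array from 1391 genes for olfactory or vomeronasal receptors, which T cells are not known to transcribe, as their 95th percentile. This limit lay between 7.46 and 7.56 (log2) for Ahr-het and between 7.55 and 7.63 for Ahr-ko. A gene was counted as above background in a group when it passed the limit on all 3 arrays, and levels of different genes were not ranked, because probes differ in brightness. Of the 35 ligands, 19 (54.3%) were above background in Ahr-het DETC and 21 (60.0%) in Ahr-ko DETC. Among all genes the shares were 56.4% and 55.0%, close to those of the ligands at this limit. At a stricter limit, the 99th percentile, 12 ligands (34.3%) passed in each genotype, against 41.4% and 40.8% of all genes. Of the ligands above the 95th percentile, Ccl7, Ccl20, Ccl22, Ccl24, Ccl27a, Cxcl2 and Cxcl10 passed the stricter limit in neither genotype. Cx3cl1 passed it in Ahr-het only and Ccl3 in Ahr-ko only. At the 95th percentile the same 19 ligands passed in both genotypes, and Ccl3 and Ccl4 passed only in Ahr-ko. Another 13 were below the limit on all 6 arrays, and Cxcl14 lay on either side of it. The sorted cells carried the T cell markers, as 14 of 14 DETC and T cell markers, among them Cd3e and the resident T cell integrin Itgae, were above the limit in both genotypes.

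**Figure D1:**
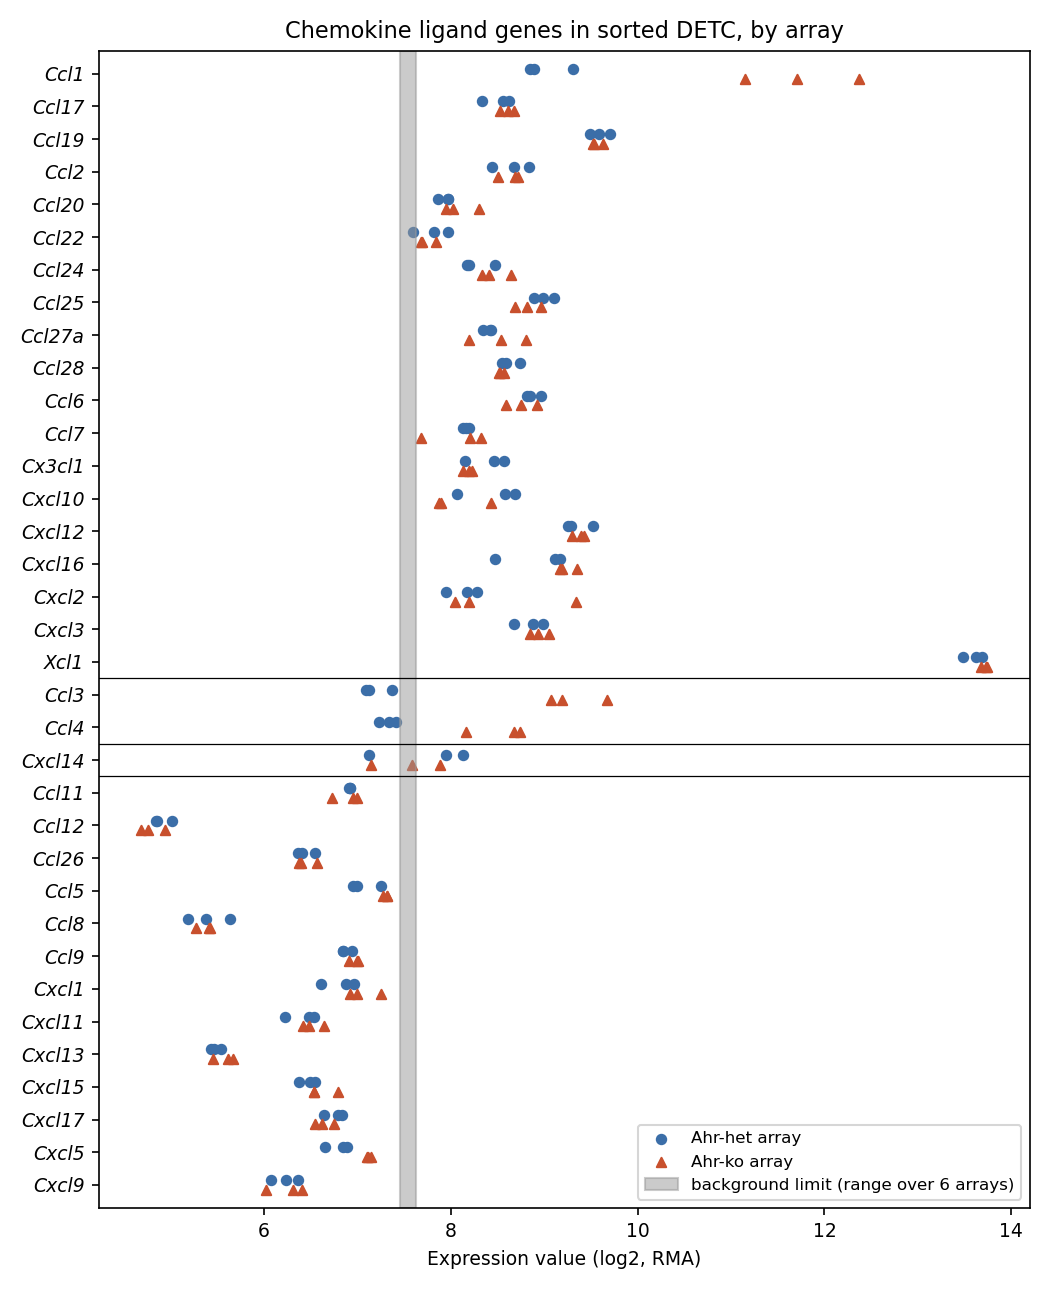
Expression value (log2, RMA) of each of the 35 ligand genes on 3 Ahr-het arrays (circles) and 3 Ahr-ko arrays (triangles), with the range of the background limit as a grey band and lines between ligands above it in both genotypes, only in Ahr-ko, on some arrays, and on none. The Ahr-ko arrays of Ccl1, Ccl3 and Ccl4 lie to the right of all their Ahr-het arrays, and the points of Xcl1 lie between 13.48 and 13.75.

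Between the genotypes 3 of the 35 ligands rose in Ahr-ko DETC and 0 fell, at an adjusted p under 0.05 from limma with Benjamini-Hochberg adjustment over the 20300 genes. These were Ccl1, Ccl3 and Ccl4, all of the CC family and all encoded on chromosome 11. The 3 ligands are 8.57% of 35, where 3.14% of all genes were called in either direction, 1.58% higher and 1.57% lower. With the replicate number as a block 7.58% of all genes were called, and the ligand counts were still 3 and 0. At an unadjusted p under 0.05 a further ligand was higher (Cxcl5, below the limit on all arrays) and 0 were lower. This made 4 of 35 ligands, while 1358 of the 20300 genes were higher and 1327 lower at that threshold. The median difference, Ahr-ko minus Ahr-het on the log2 scale, was 0.09 over the 35 ligands and 0.004 over all genes.

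Ccl1 encodes a chemokine that activated T cells and mast cells secrete and that acts on CCR8. Its level was 8.85, 9.31 and 8.89 (log2) on the Ahr-het arrays and 12.37, 11.15 and 11.71 on the Ahr-ko arrays. Every array was above the limit, and all Ahr-ko arrays were higher than all Ahr-het arrays. The means were 9.02 ± 0.26 and 11.74 ± 0.61 (SD, n = 3 each), a 6.63-fold higher value in Ahr-ko with a log2 difference of 2.73 (standard error 0.28, 95% interval 2.08 to 3.379, adjusted p = 0.00132 from limma). The margin over the limit went from 1.49 to 4.16 on the log2 scale.

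Ccl3 encodes an inflammatory chemokine of activated T cells, NK cells and macrophages that binds CCR1. It was at 7.09, 7.12 and 7.37 on the Ahr-het arrays, each below the limit of its array, and at 9.08, 9.19 and 9.67 on the Ahr-ko arrays, each above it. The groups do not overlap and lie on opposite sides of the limit. The measured means were 7.19 ± 0.16 and 9.31 ± 0.32 (SD, n = 3 each) with a log2 difference of 2.12 (standard error 0.17, adjusted p = 3.17e-04 from limma). As Ahr-het DETC gave only a bound, the mean of Ahr-ko was set against the mean limit of the Ahr-het arrays, which makes Ccl3 at least 3.45-fold higher. Such bounds, here and below, rest on means and leave out the spread between arrays.

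Ccl4 encodes a close relative of CCL3 that activated lymphocytes also secrete. Its values were 7.33, 7.23 and 7.41 on the Ahr-het arrays and 8.67, 8.16 and 8.74 on the Ahr-ko arrays. Here too all Ahr-het arrays were below the limit and all Ahr-ko arrays above it, with a smaller step than for Ccl3. The log2 difference of the measured means, 7.32 ± 0.09 and 8.52 ± 0.32 (SD, n = 3 each), was 1.20 (standard error 0.16, adjusted p = 0.00522 from limma), and by the bound Ccl4 was at least 2.00-fold higher. Against a stricter limit, the 99th percentile of the receptor genes, Ccl4 no longer passed on all Ahr-ko arrays, as its lowest value of 8.16 lay below the limit of 8.43 on that array.

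The 3 calls held in all 15 other fits tried, which included the replicate number as a block, other normalizations and leaving out each array. With 1 array left out the log2 difference ranged from 2.42 to 3.03 for Ccl1, from 1.94 to 2.24 for Ccl3 and from 1.09 to 1.38 for Ccl4. In bulk RNA of a sorted pool, more cells that make a transcript and more transcript per cell cannot be told apart.

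**Figure D2:**
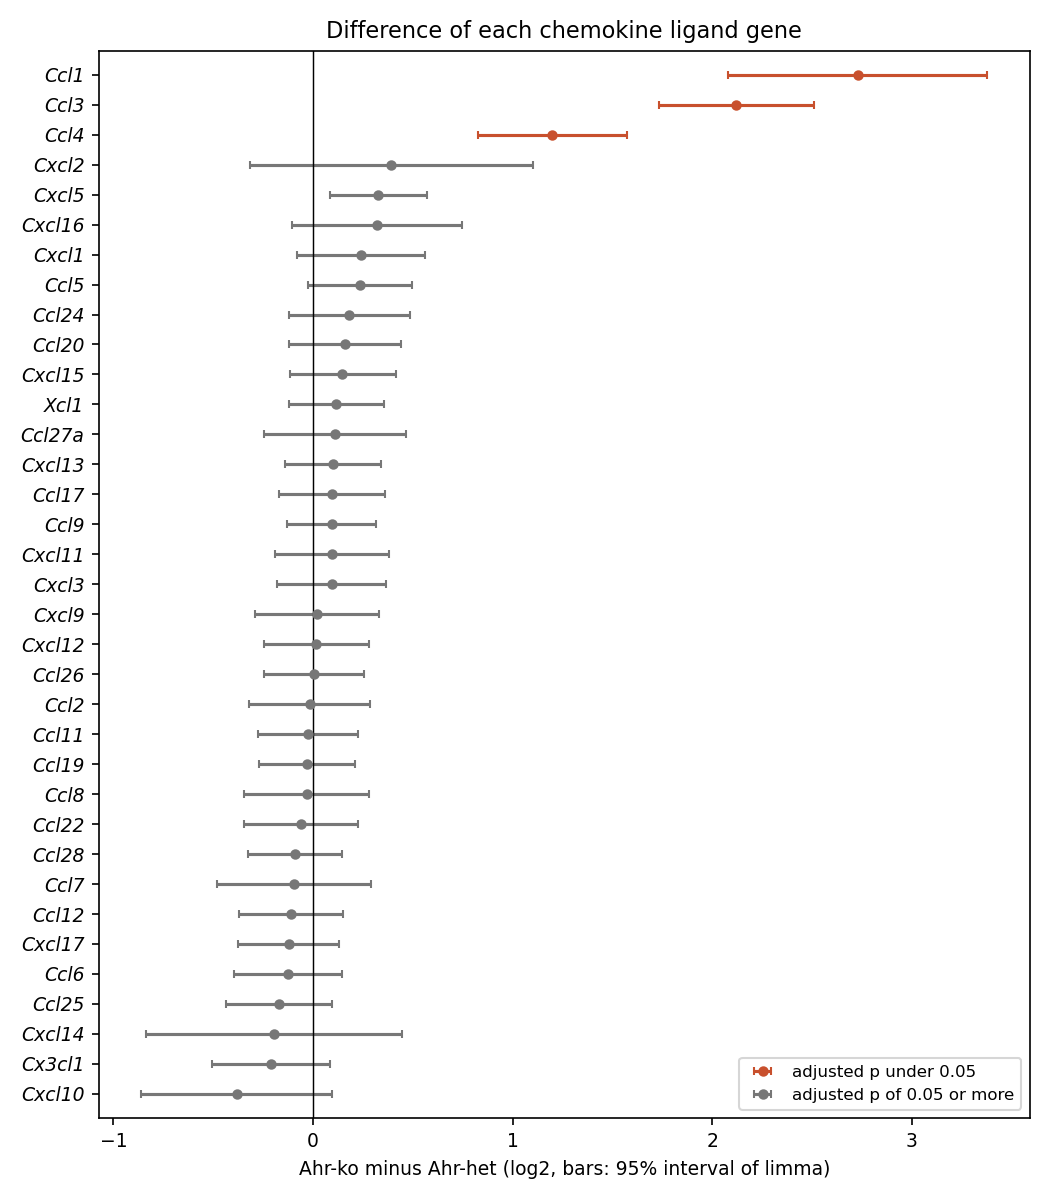
Log2 difference of Ahr-ko minus Ahr-het for each of the 35 ligands, sorted by size, with 95% intervals from limma. Ccl1, Ccl3 and Ccl4 passed the adjusted threshold (red), while the other ligands have differences from -0.38 to 0.39, and the interval of Cxcl5 also lies above 0 without an adjusted call.

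Receptors of Ccl1 and Ccl3 were measured in the same cells. Of 18 chemokine receptor genes in the list 3 were higher and 1 was lower in Ahr-ko, where 3.14% of all genes were called. With the replicate block 6 were higher and 2 lower, where 7.58% of all genes were called. Ccr1, which binds CCL3 and other CC ligands, was at 6.05, 6.12 and 6.07 in Ahr-het and at 7.86, 9.27 and 9.15 in Ahr-ko, at least 2.36-fold higher (adjusted p = 0.00302 from limma). Ccr8, the receptor for CCL1 and a marker of skin resident T cells, was above the limit in both genotypes, at 9.17, 9.83 and 9.85 in Ahr-het and at 11.38, 12.02 and 11.70 in Ahr-ko. Its log2 difference was 2.09 (standard error 0.22, adjusted p = 0.00146 from limma).

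**Figure D3:**
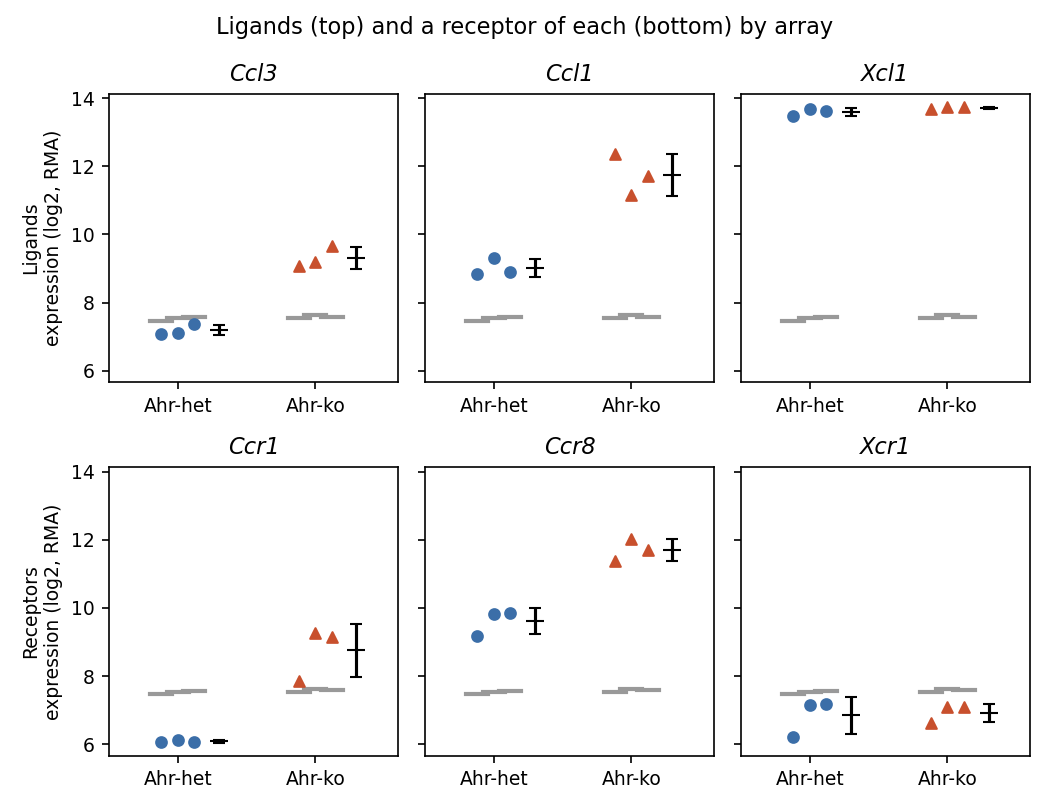
Expression (log2, RMA) of 3 ligands in the upper panels and of a receptor for each in the lower panels, by array, with grey strokes for the background limit of each array and black bars for mean and SD (n = 3). Ccl3 and Ccr1 move from below the limit in Ahr-het to above it in Ahr-ko, Ccl1 and Ccr8 are above it in both and higher in Ahr-ko, and Xcl1 is at a like level in both while Xcr1 is below the limit on all arrays.

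Among the other receptors, Ccr2, the receptor for CCL2, CCL7 and CCL12, was at least 9.55-fold higher in Ahr-ko (adjusted p = 1.015e-05 from limma), while none of those 3 ligands was called. Cxcr6, the receptor for CXCL16, fell by 1.47 on the log2 scale (9.34 ± 0.24 to 7.87 ± 0.19, SD, n = 3, adjusted p = 0.00132 from limma). Among 5 atypical receptors, which bind chemokines without signalling through G proteins, Ackr3 had a log2 difference of 0.96 (adjusted p = 0.00654, limma) and Ccrl2 of 1.11 (adjusted p = 0.00428, limma), but Ccrl2 passed the limit on only 1 of 6 arrays. Ccr4, Ccr7, Cx3cr1, Cxcr1, Cxcr3 and Cxcr4 were above the limit in both genotypes and Ccr10 in Ahr-ko, with no call. Ccr3, Ccr6, Ccr9, Ccr1l1, Cxcr2, Cxcr5 and Xcr1 were below it on all arrays.

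Of the 35 ligands, 11 of the CC family form a pair of gene clusters on chromosome 11. In the order of the RefSeq table of GRCm38.p6, Ccl1 ends the run Ccl2, Ccl7, Ccl11, Ccl12, Ccl8, Ccl1. Its 5 neighbours had log2 differences between -0.11 and -0.02, and Ccl8, the nearest, stayed below the limit on all arrays. The other cluster runs Ccl5, Ccl9, Ccl6, Ccl3, Ccl4. Here the raised genes are adjacent, and the other 3 had differences of 0.24 (Ccl5), 0.09 (Ccl9) and -0.12 (Ccl6), none of them called. The tested genes next to the clusters, Tmem132e after Ccl1 (0.11) and Wfdc17 after Ccl4 (0.04), were not called either. The annotated spans of Ccl3 and Ccl4 overlap in this table. Which parts the probes cover is not given in the sources used here, so it is uncertain whether the values of this pair are independent of each other.

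**Figure D4:**
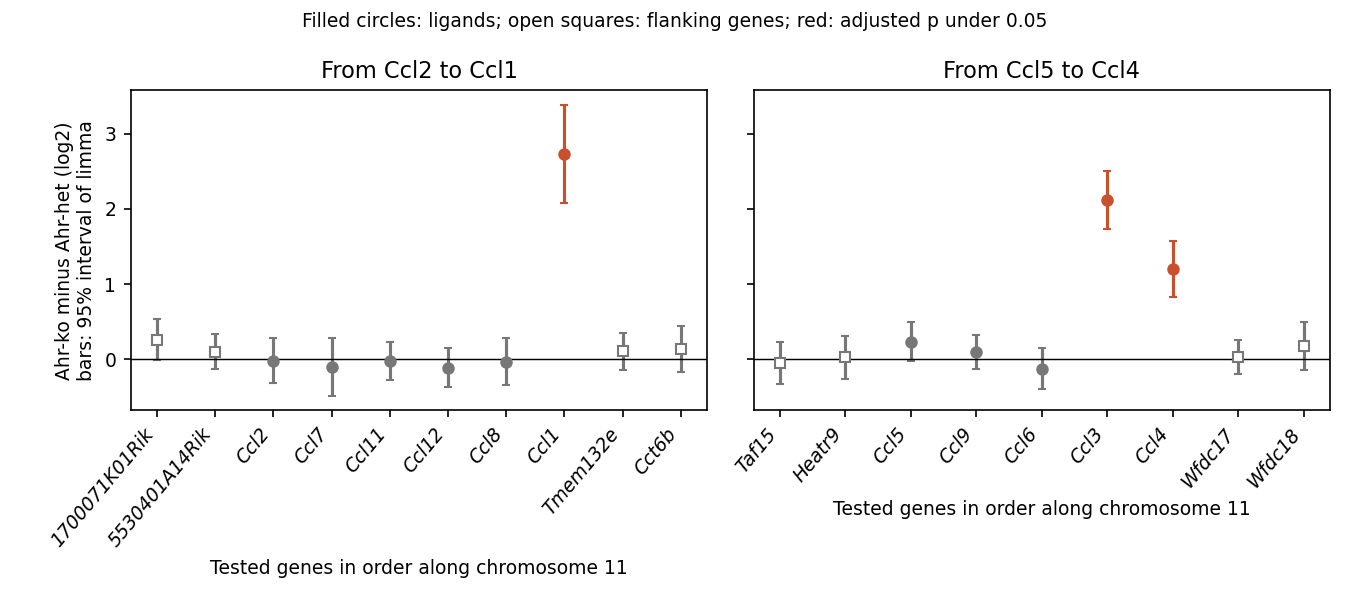
Log2 difference of Ahr-ko minus Ahr-het with 95% intervals from limma for the tested genes of both chemokine clusters, in their order along chromosome 11, with ligands as circles and flanking genes as open squares. Ccl1 (2.73), Ccl3 (2.12) and Ccl4 (1.20) stand out in red from neighbours at 0.26 or less.

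RefSeq promoter sequences were at hand for 24 of the 35 ligands, but not for Ccl4. The 250 bases before the start of Ccl1 and Ccl3, which rose, and of Xcl1, which was above the limit on every array of both genotypes and was not called, are shown as the promoters of ligands the results turn on. Capitals mark the core of NFAT sites, GGAAA or its complement TTTCC, since NFAT is a factor that T cell receptor signals activate.
Ccl1, chr11:82179813-82180062, minus strand, GRCm38.p6: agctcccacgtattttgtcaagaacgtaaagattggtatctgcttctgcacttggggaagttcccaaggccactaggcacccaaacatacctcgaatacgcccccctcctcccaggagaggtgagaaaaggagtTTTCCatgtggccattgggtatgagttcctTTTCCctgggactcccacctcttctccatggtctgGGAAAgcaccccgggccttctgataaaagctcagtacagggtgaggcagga
Ccl3, chr11:83649379-83649628, minus strand, GRCm38.p6: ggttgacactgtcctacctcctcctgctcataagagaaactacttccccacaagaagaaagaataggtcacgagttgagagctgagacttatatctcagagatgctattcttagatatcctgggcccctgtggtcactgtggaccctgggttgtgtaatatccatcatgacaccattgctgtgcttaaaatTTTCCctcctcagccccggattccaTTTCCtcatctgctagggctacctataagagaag
Xcl1, chr1:164935523-164935772, minus strand, GRCm38.p6: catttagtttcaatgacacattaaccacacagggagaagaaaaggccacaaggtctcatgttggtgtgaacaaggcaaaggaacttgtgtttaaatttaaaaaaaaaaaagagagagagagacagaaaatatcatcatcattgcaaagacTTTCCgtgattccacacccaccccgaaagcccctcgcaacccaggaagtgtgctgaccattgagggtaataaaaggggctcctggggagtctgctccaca

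The NFAT core was found 3 times before Ccl1, 2 times before Ccl3 and 1 time before Xcl1. On both strands it occurs in 55.6% of 32851 promoter windows of this length, so its presence is common. The number did not separate Ccl1 and Ccl3 from uncalled ligands. Ccl20, Cxcl1, Cxcl9 and Cxcl10 also held it 3 times, and Ccl8, Ccl9, Ccl12, Cxcl2 and Cxcl3 2 times. The core of AHR sites, GCGTG on either strand, was in none of the 3 windows, while 9 of the 24 ligands and 28.2% of all windows held it. Among these 9 were Ccl20, Cxcl10, Cxcl14 and Cxcl2, none of which was called. The AP-1 letters TGANTCA (6.7% of all windows) were absent from the 3 windows as well. A lack of these letters concerns these 250 bases only.

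Xcl1 encodes lymphotactin, the C family chemokine that activated T cells and NK cells use to call XCR1-bearing dendritic cells. Its values were 13.48, 13.69 and 13.63 on the Ahr-het arrays and 13.67, 13.73 and 13.75 on the Ahr-ko arrays. The groups overlap, and the margin over the limit was 6.08 in Ahr-het and 6.13 in Ahr-ko DETC. The log2 difference was 0.12, with a 95% interval of -0.12 to 0.36 (adjusted p = 0.731 from limma). Saturation of its probes is not given with the deposited values. Xcr1 itself was below the limit on all arrays.

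Apart from Ccl1 and Xcl1, 17 ligands were above the limit in both genotypes without a call. Their differences lay between -0.38 and 0.39 on the log2 scale, and the half-width of the 95% interval was 0.235 to 0.71. Among the inflammatory ligands, Ccl2 and Ccl7 act on CCR2 and draw monocytes. Ccl2 was at 8.44, 8.68 and 8.84 in Ahr-het and at 8.50, 8.72 and 8.69 in Ahr-ko, with overlapping groups (difference -0.02, 95% interval -0.32 to 0.29). Ccl7 was at 8.17, 8.19 and 8.13 in Ahr-het and at 7.68, 8.32 and 8.21 in Ahr-ko, where 1 array was lower than the rest (difference -0.10, 95% interval -0.48 to 0.29). Ccl6, a CCR1 ligand known from rodents, was at 8.96, 8.82 and 8.85 against 8.92, 8.59 and 8.76, again overlapping (difference -0.12, 95% interval -0.40 to 0.15).

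Neutrophil-attracting ligands of CXCR2 were split by the limit. Cxcl2 was at 7.94, 8.28 and 8.18 in Ahr-het and at 9.34, 8.05 and 8.19 in Ahr-ko. Its difference of 0.39 rested on Ahr-ko array 1 and was -0.01 without it. Cxcl3 was at 8.68, 8.99 and 8.88 in Ahr-het and at 8.85, 9.05 and 8.93 in Ahr-ko, where the groups overlap (difference 0.09, 95% interval -0.18 to 0.37). Cxcl10, an interferon-induced ligand of CXCR3, was at 8.06, 8.58 and 8.69 in Ahr-het and at 8.43, 7.89 and 7.87 in Ahr-ko. Its difference of -0.38 (95% interval -0.86 to 0.10, adjusted p = 0.519 from limma) did not pass. The call appeared in 2 of the 15 other fits, as the difference was -0.62 with array weights (adjusted p = 0.0301) and -0.76 without both replicate 1 arrays (adjusted p = 0.00723, limma).

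Ligands of skin homing receptors were among those above the limit. Ccl27a, which keratinocytes make and which binds CCR10, was at 8.42, 8.43 and 8.35 in Ahr-het and at 8.54, 8.19 and 8.80 in Ahr-ko. Ccl28, the other CCR10 ligand, was at 8.55, 8.74 and 8.59 against 8.51, 8.57 and 8.52. Both overlapped between the genotypes (differences 0.11 and -0.09). Ccl17, a CCR4 ligand of dendritic cells, was at 8.33, 8.56 and 8.63 against 8.68, 8.61 and 8.53 (difference 0.10). Ccl22, which also binds CCR4, was at 7.82, 7.97 and 7.60 against 7.68, 7.69 and 7.84 and thus close to the limit on several arrays (difference -0.06). Neither CCR4 ligand separated the genotypes. Ccl20, the CCR6 ligand of inflamed epithelium, was at 7.97, 7.86 and 7.97 against 8.31, 8.02 and 7.95 (difference 0.16, 95% interval -0.12 to 0.44).

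Both transmembrane chemokines were above the limit. Cxcl16, whose receptor CXCR6 marks tissue resident lymphocytes, was at 8.47, 9.17 and 9.11 in Ahr-het and at 9.19, 9.35 and 9.17 in Ahr-ko. All Ahr-ko arrays lay above all Ahr-het arrays, by a small gap, and the difference of 0.32 (95% interval -0.11 to 0.75, adjusted p = 0.552 from limma) did not pass. Non-overlap was found for 6 of 35 ligands (17.1%) and for 18.7% of all genes. Cx3cl1, fractalkine, was at 8.16, 8.46 and 8.57 against 8.20, 8.13 and 8.23 (difference -0.21, 95% interval -0.51 to 0.08).

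Homeostatic and eosinophil-directed ligands completed those above the limit. Cxcl12 was at 9.25, 9.29 and 9.53 in Ahr-het and at 9.43, 9.29 and 9.39 in Ahr-ko (difference 0.02). Ccl25, the CCR9 ligand of thymus and gut, was at 8.99, 8.89 and 9.10 against 8.82, 8.69 and 8.96 (difference -0.17). Ccl24, an eotaxin, was at 8.19, 8.47 and 8.17 against 8.41, 8.64 and 8.33 (difference 0.18). All of these overlapped between the genotypes. Ccl19, a CCR7 ligand of lymphoid stroma, was at 9.49, 9.59 and 9.71 against 9.53, 9.63 and 9.53 (difference -0.03), and was the only ligand with several probe sets. Of its 6 probe sets 4 others lay between 8.81 and 9.56 and 1 between 5.94 and 6.50 on the 6 arrays. The RefSeq table lists Ccl19 pseudogenes, so it is uncertain which copy these values reflect.

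Cxcl14, a keratinocyte and fibroblast chemokine, was at 7.12, 7.94 and 8.13 in Ahr-het and at 7.15, 7.89 and 7.58 in Ahr-ko. Replicate 1 was lowest in both genotypes, and 3 of 6 arrays passed the limit (difference -0.20, adjusted p = 0.855 from limma). The other 13 ligands were below the limit on all 6 arrays, with values from 4.69 to 7.32. Ccl5, which effector T cells commonly make, was among them, at 6.99, 6.96 and 7.25 in Ahr-het and at 7.28, 7.32 and 7.31 in Ahr-ko. The groups did not overlap, but the difference of 0.24 (adjusted p = 0.441 from limma) did not pass and has no fold, since both are below background. Cxcl5, a CXCR2 ligand, showed the same picture (6.80 ± 0.13 and 7.12 ± 0.02, SD, n = 3, adjusted p = 0.208 from limma). Also below were the inflammatory Ccl8, Ccl9, Ccl11, Ccl12 and Ccl26, the CXCR2 ligands Cxcl1 and Cxcl15, the CXCR3 ligands Cxcl9 and Cxcl11, and Cxcl13 and Cxcl17. Cxcl11 is annotated as a transcribed pseudogene in the RefSeq table of the C57BL/6J genome.

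Values that bear on the reading of these differences were taken from lists of related genes. Over all genes 3.14% were called (1.58% higher and 1.57% lower), and 7.58% with the replicate block. Ahr itself was at 10.77, 10.62 and 10.72 in Ahr-het and at 10.00, 10.40 and 10.39 in Ahr-ko (difference -0.44, adjusted p = 0.177 from limma), and whether its probes lie in the deleted part is not given. Ahrr, the AHR repressor that AHR induces, fell by 1.45 on the log2 scale (adjusted p = 8.92e-04 from limma), and was the 1 call among 7 genes of the AHR pathway, where 2 were lower with the replicate block. Of 18 tested genes of chemokine signalling, Pik3r6, a subunit of the PI3 kinase downstream of chemokine receptors, was at least 10.2-fold higher, and Rac2 had a difference of 0.56 (adjusted p = 0.0467, limma), a call that ended in 7 of 15 other fits. With the replicate block 4 of these 18 genes were higher and 1 was lower. Among 23 regulators and cytokines of activated T cells there were 4 higher and 0 lower genes, namely Ifng (at least 8.07-fold), Eomes (at least 6.54-fold), Tbx21 (difference 3.43) and Egr2 (1.33). In 4 and 5 of the 15 other fits the calls of Tbx21 and Egr2 ended, and with the replicate block 6 genes of the list were higher and 3 lower. The NF-κB genes Nfkb1, Nfkb2, Rel and Rela were not called.

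Markers of other cells that could make chemokines were read in the same arrays. For comparison, 3.14% of all genes were called in the main fit and 7.58% with the replicate block. Of 12 macrophage and monocyte markers 0 were called, with a mean level of 7.02 to 7.29 in Ahr-het and 7.05 to 7.20 in Ahr-ko. On every Ahr-het array 9 of them were below the limit, with Lyz2, Mpeg1 and Itgam below it on all 6 arrays. Cd68 and Fcgr1 were above the limit on all 6 arrays. C1qb was above it on all 3 Ahr-het arrays and on 2 of 3 Ahr-ko arrays. Of 5 tested NK cell and ILC markers 3 were higher in Ahr-ko (Ncr1, Klri2 and Eomes), and their mean level was 7.46 to 7.82 against 8.46 to 9.12. The call of Ncr1 ended in 5 of the 14 other fits that tested it and that of Klri2 in 6 of 15, while that of Eomes held in all 15. With the replicate block 1 marker of this list was also lower. Of 6 αβ T cell markers 3 were higher (Cd8a, Cd8b1 and Cd6) and Themis was lower, with a mean level of 8.59 to 8.66 against 9.07 to 9.13. Of 15 other fits the call ended in 7 for Cd8b1, in 6 for Themis and in 2 each for Cd8a and Cd6. The mean level of 11 Langerhans and dendritic cell markers was 7.76 to 7.92 against 8.14 to 8.61, with Itgax (at least 19.8-fold higher) as the 1 call. Itgax had a log2 difference of 4.71, whereas the median difference over this list was 0.12. H2-Aa, H2-Ab1, H2-Eb1, Epcam, Ctss and Mfge8 were above the limit on all 6 arrays. Cd207 passed it on 1 of 3 arrays of each genotype. Cd163l1 was higher among 10 tested genes that mark γδ T cells of the IL-17 type, and 1 gene was also lower with the replicate block. Melanocyte markers and fibroblast and endothelial markers had 0 calls among 7 and 8. Of these, Mlana, Sox10 and Col1a1 were above the limit on all 6 arrays. Col1a2 was above it on all 3 Ahr-het arrays and on 2 of 3 Ahr-ko arrays. Mast cell markers had 0 calls among 8, with 6 below the limit on every Ahr-het array, Cpa3 and Fcer1a among them. The other 2, Tpsb2 and Hdc, were above the limit on all 6 arrays. Of 15 keratinocyte markers Dsp was lower and 0 were higher, with a mean level of 8.57 to 8.79 against 8.39 to 8.68. Above the limit on all 3 arrays were 12 of these 15 in Ahr-het and 11 in Ahr-ko, with Krt5, Krt14 and Sfn in both. These lists share genes with T cells, as Eomes is also on the activation list. The part of these markers in the differences of Ccl1, Ccl3 and Ccl4, or in the levels of other ligands, was not tested.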

How the data were processed

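RNA of sorted DETC was hybridised to 6 Clariom S Mouse arrays, 3 per genotype, with groups and replicate numbers from the sample titles. The authors deposited log2 expression values made by RMA over all arrays. RMA version, probe annotation and genome build were not given in the sources used here. A deposited table of the authors' comparison holds log2 fold changes and mean log2 values, p-values with adjusted p-values, and t and log-odds scores from limma 3.38.3. Only its gene IDs and symbols were used. Of 29129 probe sets 20435 name a gene; the brightest stood for each of 20300 genes, of which 20199 were in the RefSeq table of GRCm38.p6.

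Genotypes were compared over all genes in R 4.3.3 by limma 3.58.1 (lmFit, then eBayes) at an adjusted p under 0.05. On simulated arrays of 20300 genes for this comparison, the test called 47 of 50 genes changed by 2 on the log2 scale, 35 of 50 changed by 1, 31 of 50 changed by -1 and 8 of 50 changed by 0.5, with 9 false calls. The simulated noise was independent between arrays, whereas real arrays of equal replicate number deviated together, so these rates need not hold for the real arrays. The number of arrays limits precision. Named are all ligands, those above background or called with each array's value, the 18 listed receptors, and up to 4 called genes per related list. A receptor gene is not reported here. The ligands, lists and alternatives were chosen with earlier results of these data known. Alternatives were the replicate block, all probe sets, a filter on dim genes, quantile normalization, median centring, an intensity trend, array weights, the mean of probe sets, other background percentiles, leaving out arrays and, chosen after seeing the data, leaving out both replicate 1 arrays.

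Equal replicate numbers deviated together from their group means (correlations over genes of 0.572, 0.369 and 0.207). The replicate number was therefore tried as a block, while the main fit held the genotype only and treated the arrays as unpaired. No label explains these numbers, and arrays 2 and 3 of opposite genotype correlated too (0.236 and 0.336). Ahr-ko 3 correlated with Ahr-het 2 (0.236) more than with Ahr-het 3 (0.207), so a pairing of arrays 2 and 3 by number is uncertain.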

Additional observations from a re-analysis of the deposited data

How the results depend on the processing

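The count of ligands higher in Ahr-ko was 3 in all 15 alternatives of the limma fit. The count of lower ligands was 0, but 1 (Cxcl10) with array weights and 1 without both replicate 1 arrays. With the replicate block 747 genes were higher and 791 lower over all genes (main values 320 and 318), with array weights 874 and 842, and without both replicate 1 arrays 552 and 595. Leaving out 1 array gave 164 to 315 higher and 178 to 329 lower genes, with the fewest without Ahr-het 2 (170 and 185), Ahr-het 3 (181 and 190) or Ahr-ko 3 (164 and 178). The block changed the call of no ligand. At the 99th percentile 12 ligands were above background in Ahr-het and 12 in Ahr-ko. Signs were compared between fits for the 21 ligands called or above background on all 3 arrays of a group. They changed for 8 ligands that were not called. The signs of the remaining ligands were not compared. Leaving out 1 array gave log2 differences of -0.083 to 0.028 for Ccl19, -0.122 to 0.077 for Ccl2, -0.156 to 0.029 for Ccl22, -0.032 to 0.271 for Ccl27a, -0.221 to 0.101 for Ccl7, -0.037 to 0.102 for Cxcl12 and -0.014 to 0.632 for Cxcl2. The difference of Ccl19 was 0.07 with the mean of its probe sets and that of Ccl7 0.003 with array weights. Without both replicate 1 arrays it was -0.026 for Ccl17, 0.102 for Ccl7, -0.065 for Cxcl12 and -0.109 for Cxcl2. Signal over background limits the 13 ligands below the limit, for which no change could be measured, and the cause of these shifts was not tested.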

Other observations

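Pf4 and Ppbp encode CXC chemokines of platelets whose symbols lie outside the pattern that chose the ligands. Pf4 was above the limit on all 6 arrays, at 8.73, 8.67 and 8.70 in Ahr-het and at 8.71, 8.85 and 8.75 in Ahr-ko, with overlapping groups. Ppbp was below the limit on all arrays. Neither was called by limma (adjusted p = 0.855 and 0.818).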
